A study of Mus musculus with 9 samples.

Results

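Genes of cholesterol and SREBP lipid synthesis were compared in 3 kinds of mouse neural cells, on 9 Affymetrix arrays with 3 arrays per group. The list held 31 genes, chosen by name, and 30 of them were measured among 18193 genes in all. They comprise 6 enzymes of the mevalonate arm, 11 enzymes of the steps from squalene to cholesterol, 5 SREBP factors and sterol sensors, 4 enzymes of fatty acid synthesis and desaturation, and 4 genes of sterol transport and efflux. Each gene was read from the probe set that the array annotation gives to its symbol alone, and from the brightest over the 9 arrays where several did so. Acat2, a thiolase at the head of the pathway, was not analysed here.

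Neurons were primary cortical cultures, prepared per the methods from late embryos or newborn pups, and kept in Neurobasal medium with B27 and AraC, a compound that kills dividing cells. NSCs were native neural stem cells grown with EGF, bFGF and heparin in DMEM/F12 and N2. The yNSCs were grown in that same medium and were obtained from cortical neurons that carried lentiviral vectors for doxycycline-inducible wild-type YAP and its transactivator. Per the methods doxycycline was given while the first spheres formed and was left out at later passages. Mouse strain, the origin of the native NSCs and the passage used for the arrays are not given in the sources used here. Cell kind and medium cannot be told apart in either comparison with neurons, whereas yNSCs and NSCs shared a medium. Origin from AraC-treated neurons, the vectors, past doxycycline and any difference in passage cannot be told apart in yNSCs against NSCs. Samples A, B and C of a group are biological replicas per the labels, which do not name the cultures or animals behind them, so p-values measure the spread between these samples.

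Cells make cholesterol from acetyl units through mevalonate, farnesyl diphosphate, squalene and lanosterol. When sterols in the endoplasmic reticulum are low, Scap carries the SREBP precursors to the Golgi, where they are cut, and their released parts enter the nucleus and raise transcription of sterol and fatty acid enzymes. Insig proteins hold Scap back when sterols are plentiful. Oxysterols activate the LXR factors, which raise transcription of efflux genes such as Abca1 and Abcg1. In the brain, cholesterol is made locally because lipoproteins of the blood do not cross into it, and astrocytes are known to pass lipid to neurons on particles that carry Apoe.

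Values are log2 expression summaries, so a difference of 1 is a doubling. The median of each array lay between 4.90 and 5.02 and the lower quartile between 3.42 and 3.73. The 30 genes spanned 4.62 to 13.32, and 0 of them fell below the lower quartile of any array. Upper quartiles were 6.95 to 7.03 in neurons, 7.24 to 7.31 in yNSCs and 7.32 to 7.35 in NSCs. Within groups, arrays correlated across genes at 0.9923 to 0.9929 in neurons, 0.9963 to 0.998 in yNSCs and 0.9922 to 0.9975 in NSCs. The 3' minus 5' signal of Actb, a measure of RNA integrity, was 0.03 to 0.21 in neurons, 0.19 to 0.31 in yNSCs and 0.56 to 0.70 in NSCs. Summed linear levels of 10 neuron markers were 30900 to 32200 in neurons, 1550 to 1630 in yNSCs and 3240 to 3590 in NSCs. In that order, 8 neural stem cell markers summed to 16300 to 17200, 26900 to 27300 and 28700 to 31900. Such sums weigh the brightest markers most. In yNSCs against NSCs, 4 neuron markers were called higher and 3 lower, the latter including Map2 (means 9.76 and 11.52). Of the stem cell markers, 1 was higher there (Prom1, 1.70) and 3 lower (Hes5 -3.88, Sox3 -3.71, Fabp7 -0.31). The shares of all genes were 21.3% higher and 18.0% lower. All 7 dividing cell markers were called higher in yNSCs and in NSCs than in neurons, against 34.6% and 33.3% of all genes. In yNSCs against NSCs 0 of them were higher, 4 lower (Mki67 the most, at -1.40) and 3 not called. The part of RNA quality and of these marker lists in the results was not tested. In bulk RNA, fewer cells of a type and less RNA per cell cannot be told apart.

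Promoters were read because SREBP acts at them together with the factors that bind CCAAT and GC boxes. RefSeq windows of 250 bases before the gene start on GRCm38.p6 matched 23 of the 30 genes, and some genes had several windows. The sterol regulatory element core TCACNCCAC, searched on both strands, was found in 1 of 23 genes, Hmgcs1. The shares were 1.22% of 27025 genes, 1.27% of the 14452 array genes with a window, and 1.05% of 32851 windows. CCAAT on either strand was found in 19 of 23 genes (82.6%), against 37.5% of all genes, 39.4% of the 14452 array genes with a window, and 33.8% of windows. It was absent from the windows of Abca1, Acly, Apoe and Scap. GGGCGG on either strand was found in 20 of 23 (87.0%), against 35.4% of all genes, 53.4% of array genes and 32.7% of windows, and was absent for Apoe, Fasn and Pmvk. No match overlapped another in the members' windows. A match is a description of these letters and not a binding site. Only exact letters were searched, so variants of an element were missed and a gene without a match may still hold one.

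Windows of 4 genes are printed 5' to 3' on the strand of the gene, ending just before its start, with every match in capitals. They are the one gene with the sterol regulatory element core (Hmgcs1, chr13:119690101-119690350, plus strand), the SREBP factor with the largest difference between NSCs and neurons (Srebf2, chr15:82147019-82147268, plus strand), a sterol sensor (Insig1, chr5:28071162-28071411, plus strand) and an efflux gene that moved the other way (Abca1, chr4:53159896-53160145, minus strand). In the Hmgcs1 window the core began 137 bases before the start, among 3 CCAAT and 2 GC boxes. The Srebf2 window held 1 CCAAT and 4 GC boxes, the Insig1 window 1 and 3, and the Abca1 window 2 GC boxes.
Hmgcs1: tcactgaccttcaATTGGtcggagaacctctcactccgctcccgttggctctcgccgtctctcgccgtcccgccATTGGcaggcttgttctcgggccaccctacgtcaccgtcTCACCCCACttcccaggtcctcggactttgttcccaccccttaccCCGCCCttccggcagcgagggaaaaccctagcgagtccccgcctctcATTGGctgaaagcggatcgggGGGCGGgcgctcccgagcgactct
Srebf2: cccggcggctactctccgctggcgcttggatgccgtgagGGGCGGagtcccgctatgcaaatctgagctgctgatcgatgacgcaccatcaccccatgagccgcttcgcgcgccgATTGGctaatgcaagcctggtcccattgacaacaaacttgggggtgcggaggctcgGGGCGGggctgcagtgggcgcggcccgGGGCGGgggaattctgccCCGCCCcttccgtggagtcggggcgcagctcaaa
Insig1: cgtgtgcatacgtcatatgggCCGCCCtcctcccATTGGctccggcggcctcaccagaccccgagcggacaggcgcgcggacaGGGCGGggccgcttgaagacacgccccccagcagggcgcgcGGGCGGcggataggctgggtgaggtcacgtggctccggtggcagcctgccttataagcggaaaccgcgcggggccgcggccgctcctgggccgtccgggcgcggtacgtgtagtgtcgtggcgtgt
Abca1: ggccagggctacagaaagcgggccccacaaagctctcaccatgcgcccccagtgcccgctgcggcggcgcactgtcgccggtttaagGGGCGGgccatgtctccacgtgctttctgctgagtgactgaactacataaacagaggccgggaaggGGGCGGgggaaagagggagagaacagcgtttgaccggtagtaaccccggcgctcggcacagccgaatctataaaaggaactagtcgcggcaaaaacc

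Most of the sterol genes formed a ladder, lowest in neurons, intermediate in yNSCs and highest in native NSCs. Group means took that order in 21 of 30 genes (70%), against 20.4% of all genes. By the probe sets used, both steps passed the test in 16 of the 21, and the others were Hmgcs1, Lss, Mvk, Msmo1 and Scap. The share of all genes that passed both steps was not computed, so the 16 cannot be read against it. Of the 16, Srebf1 lost its step from neurons to yNSCs after quantile normalization again and with some single arrays left out. Singly, 34.6% of all genes were called higher in yNSCs than in neurons, and 18.0% lower in yNSCs than in NSCs. In NSCs against neurons, 27 of the 30 genes were higher and 3 lower, and all 30 had groups whose arrays did not overlap. Over all genes 67.4% were called by the same rule (limma, adjusted p under 0.05), 33.3% higher and 34.1% lower, and 33.5% and 35.6% did not overlap. The median difference of the 30 genes was 2.11, against -0.07 for all genes, and 23 were at least 2-fold higher (18.6% of all genes).

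In yNSCs against neurons the median difference was 0.92, against -0.01 for all genes, with 22 genes higher, 5 lower and 3 not passing the test. Over all genes 62.5% were called, 34.6% higher and 27.9% lower. At least 2-fold, 10 were higher and 1 lower (18.3% and 11.0% of all genes). Arrays did not overlap in 22 genes higher in yNSCs and 6 lower, against 36.8% and 30.2% of all genes. In yNSCs against NSCs the direction turned, with 22 genes lower in yNSCs, 3 higher and 5 not passing, against 18.0% and 21.3% of all genes (39.3% called in all), and a median of -1.30 against 0.07. Of these, 19 were at least 2-fold lower (5.97% of all genes) and 2 at least 2-fold higher (6.06%). Arrays did not overlap in 24 genes lower and 4 higher, against 21.9% and 29.6% of all genes. The comparisons share arrays in pairs, so their directions are not independent of each other. A second quantile normalization moved the median of yNSCs against neurons to 0.63, while the median of all genes moved by 0.05.

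**Figure D1:**
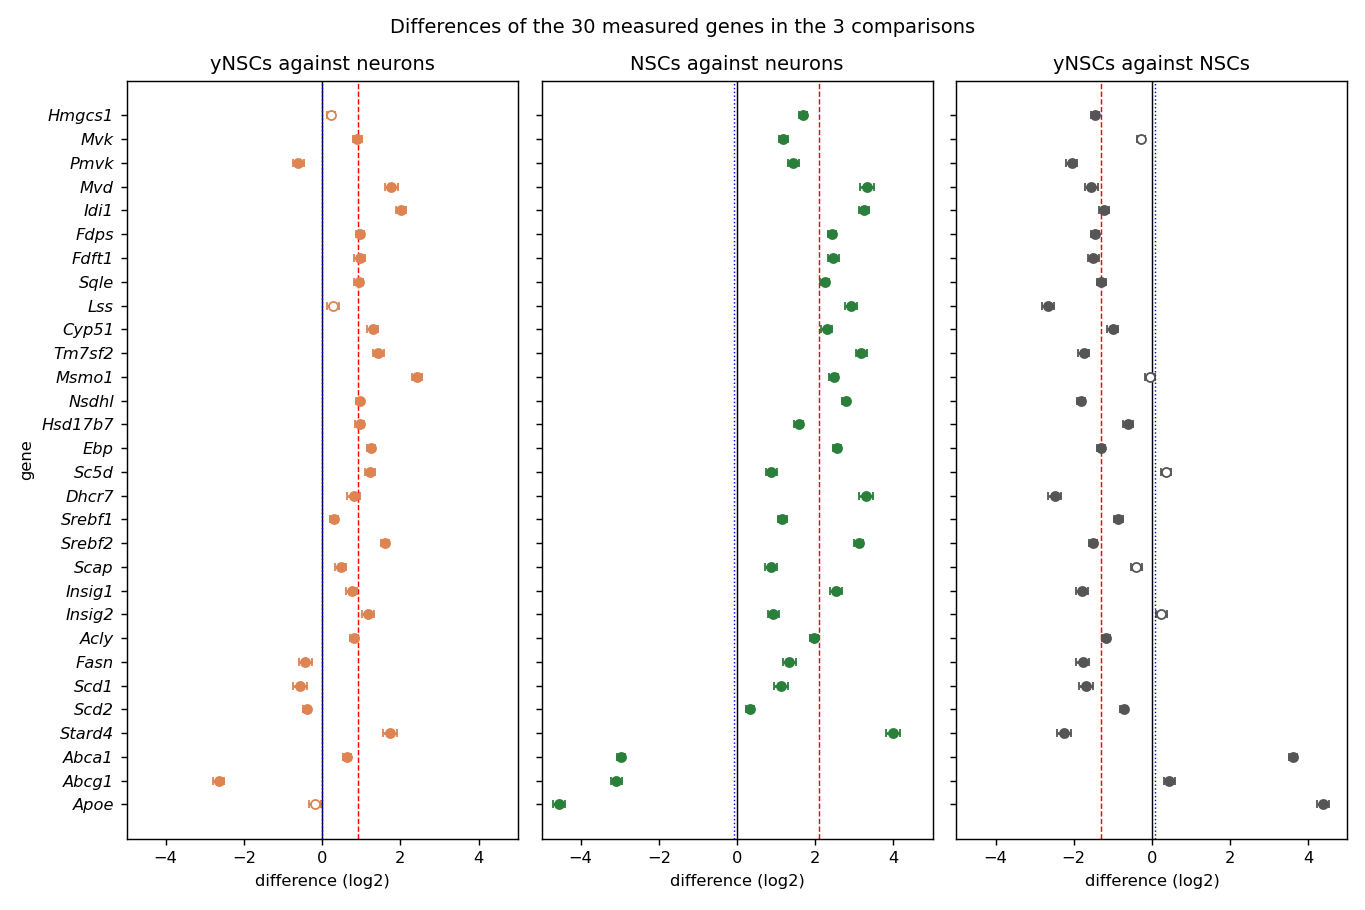
Log2 differences of the 30 measured genes in the 3 comparisons, with bars for the standard error, filled points for adjusted p under 0.05 and open points for the rest. The dashed red line is the median of the 30 genes (0.92, 2.11 and -1.30), the dotted blue line that of all genes. Most points lie right of 0 against neurons and left of 0 in yNSCs against NSCs, while Abca1, Abcg1 and Apoe lie on the opposite side in both comparisons that involve NSCs.

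In the mevalonate arm all 6 measured enzymes were higher in NSCs than in neurons, against 33.3% of all genes. The yNSCs exceeded neurons in 4 and fell below them in 1, against 34.6% and 27.9% of all genes. In yNSCs against NSCs 5 were lower, against 18.0% of all genes. Hmgcs1, the synthase that makes HMG-CoA for the pathway, stood at 11.54, 11.26 and 11.37 in neurons A, B and C, at 11.68, 11.64 and 11.53 in the yNSCs, and at 13.03, 13.10 and 13.12 in the NSCs. The yNSC arrays overlapped the neuron arrays and all 3 NSC arrays lay well above both. NSCs exceeded neurons by 1.69 ± 0.10 (SE, 3.23-fold, adjusted p = 2.45e-08), and yNSCs differed from neurons by 0.23 ± 0.10 (adjusted p = 0.0768). That difference passed with neurons A left out (0.30, adjusted p = 0.0278) and when its 5 probe sets were averaged (0.475, adjusted p = 0.000406). The other probe sets of Hmgcs1 each passed in yNSCs against neurons (0.383, 0.39, 0.377 and 0.997, adjusted p from 0.00475 to 0.0461).

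Idi1, the isomerase of the 5-carbon isoprenoid units, read 8.24, 8.05 and 7.85 in neurons, 10.11, 10.11 and 9.97 in yNSCs, and 11.18, 11.26 and 11.44 in NSCs. No array of one group overlapped another group. It was 4.05-fold higher in yNSCs than in neurons (adjusted p = 2.2e-08) and 2.35-fold lower in yNSCs than in NSCs (adjusted p = 6.26e-06). Mvd, which makes the first of those units, read 6.06, 5.33 and 5.28 in neurons, 7.40, 7.32 and 7.27 in yNSCs and 8.83, 8.91 and 8.89 in NSCs. Its spread in neurons was the largest of the 30 genes there (SD 0.44), with array A above the other two, and the steps of 1.77 and 1.55 between the groups still exceeded it.

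Pmvk, the kinase of the step before Mvd, broke the ladder. It read 8.12, 8.09 and 7.73 in neurons, 7.41, 7.52 and 7.18 in yNSCs, and 9.33, 9.39 and 9.55 in NSCs. Here the yNSCs were the lowest group, 1.53-fold below neurons (adjusted p = 0.00161) and 4.15-fold below NSCs (adjusted p = 1.87e-07). Mvk, which phosphorylates mevalonate, was 1.87-fold higher in yNSCs than in neurons, and its gap of -0.28 ± 0.11 to NSCs had an adjusted p of 0.0584. It passed with NSCs B left out (-0.35, adjusted p = 0.0407) and with neurons C left out (adjusted p = 0.0387). The other probe set of Mvk placed yNSCs further below NSCs (-0.82, adjusted p = 0.000141), and the mean of both gave -0.55 (adjusted p = 0.000745). Fdps, the synthase of farnesyl diphosphate, had means of 9.17 ± 0.08 (SD, n = 3) in neurons, 10.14 ± 0.10 in yNSCs and 11.60 ± 0.07 in NSCs, and passed in all 3 comparisons.

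From squalene to cholesterol all 11 enzymes were higher in NSCs than in neurons, against 33.3% of all genes, with a median of 2.47. In yNSCs against neurons 10 were higher and 0 lower, against 34.6% and 27.9% of all genes. In yNSCs against NSCs 9 were lower and 0 higher, against 18.0% and 21.3% of all genes. Msmo1, the C4-methyl sterol oxidase, read 9.17, 8.77 and 8.74 in neurons, 11.41, 11.33 and 11.21 in yNSCs and 11.39, 11.35 and 11.34 in NSCs. The yNSC arrays spanned the NSC arrays (difference -0.04 ± 0.12 SE, adjusted p = 0.822, 0.01 without yNSCs C). It was 5.36-fold higher in yNSCs than in neurons (adjusted p = 5.31e-09). A dimmer probe set of Msmo1 did not pass in yNSCs against neurons (0.19, adjusted p = 0.463) and placed yNSCs below NSCs (-1.27, adjusted p = 0.000425), as did the mean of both probe sets (-0.66, adjusted p = 0.00167).

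Lss, the synthase that closes the lanosterol ring, lay at the other end by the probe set used. Its arrays read 6.96, 6.58 and 6.45 in neurons, 7.09, 6.98 and 6.73 in yNSCs and 9.40, 9.55 and 9.79 in NSCs. Neurons and yNSCs overlapped (0.27 ± 0.16 SE, adjusted p = 0.15), and yNSCs were 6.26-fold below NSCs (adjusted p = 7.62e-08). The Lss difference from neurons passed with neurons A left out (0.42, adjusted p = 0.0297) and when its 3 probe sets were averaged (0.57, adjusted p = 0.000604). It was -0.02 after quantile normalization again. Its other probe sets both passed against neurons (0.93, adjusted p = 1.71e-05, and 0.50, adjusted p = 0.0186). Dhcr7, a reductase of the last steps to cholesterol, read 7.18, 7.07 and 6.46 in neurons, 7.81, 7.75 and 7.57 in yNSCs and 10.34, 10.10 and 10.16 in NSCs. All yNSC arrays lay above the neuron arrays, yet NSCs were 5.62-fold above yNSCs (adjusted p = 2.6e-07).

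Of the other enzymes of these steps, Fdft1 (squalene synthase), Sqle (squalene epoxidase), Nsdhl and Hsd17b7 (both in removal of the C4 methyl groups) were 1.92-fold to 1.95-fold higher in yNSCs than in neurons. Cyp51 (lanosterol demethylase), Tm7sf2 (a sterol C14 reductase) and Ebp (sterol isomerase) were 2.37-fold to 2.71-fold higher. Against NSCs these 7 enzymes were 1.53-fold to 3.53-fold lower in yNSCs, the smallest gap being Hsd17b7 and the widest Nsdhl. These ranges hold for the probe sets used. Other probe sets of Hsd17b7 gave log2 differences of 1.92, 0.85 and -0.10 against neurons and -1.14, -0.58 and -0.35 against NSCs. Those of Cyp51 gave 2.15 and 1.16 against neurons. Sc5d, the sterol C5 desaturase, was the exception among the enzymes of these steps. It read 8.85, 8.34 and 8.51 in neurons, 9.83, 9.68 and 9.88 in yNSCs and 9.38, 9.49 and 9.47 in NSCs. The yNSC arrays were the highest of the 3 groups, by 0.35 ± 0.13 (SE) over NSCs with an adjusted p of 0.0512. That gap passed with neurons A or B left out (adjusted p = 0.0176 and 0.031), and a second probe set gave -0.52 (adjusted p = 0.0128).

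**Figure D2:**
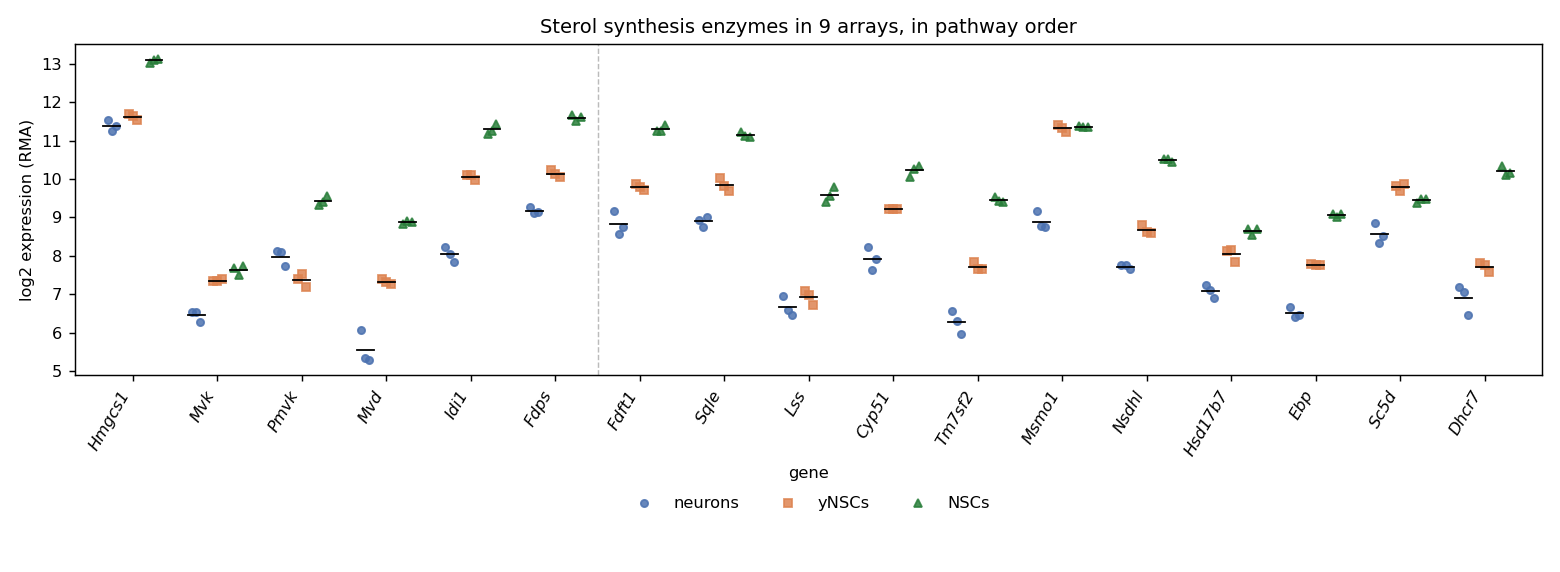
Log2 expression of the 17 sterol synthesis enzymes in each of the 9 arrays, in pathway order, with the mevalonate arm left of the dashed line. Points are arrays and bars are group means. Neurons lie lowest and NSCs highest for 15 of the enzymes, Pmvk is lowest in yNSCs, and Sc5d is highest in yNSCs.

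By the probe sets used, all 5 SREBP factors and sensors were higher in yNSCs and in NSCs than in neurons. The shares of all genes were 34.6% and 33.3%. The calls of Srebf1 and Scap in yNSCs against neurons were lost after quantile normalization again. Srebf2, the SREBP that chiefly drives sterol genes, read 5.93, 5.92 and 6.09 in neurons, 7.56, 7.56 and 7.61 in yNSCs and 9.17, 9.16 and 8.93 in NSCs. The groups were evenly spaced and did not overlap. It was 3.02-fold higher in yNSCs than in neurons (adjusted p = 4.49e-08) and a further 2.85-fold higher in NSCs (adjusted p = 2.96e-07). Its second probe set was higher in NSCs by 1.22 and did not pass in yNSCs against neurons (0.21, adjusted p = 0.252).

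Srebf1, whose products chiefly drive fatty acid genes, read 9.48, 9.22 and 9.27 in neurons, 9.74, 9.60 and 9.54 in yNSCs and 10.47, 10.45 and 10.53 in NSCs. The step from neurons to yNSCs was small (0.30 ± 0.11 SE, adjusted p = 0.025) and that from yNSCs to NSCs larger (1.81-fold, adjusted p = 4.02e-05). The small step was lost without neurons B (adjusted p = 0.0803) or C (0.0637), without yNSCs A (0.107) or B (0.0549), and after quantile normalization again (0.04). Insig1, itself a known SREBP target, read 8.57, 8.01 and 7.93 in neurons, 8.97, 8.94 and 8.86 in yNSCs and 10.80, 10.69 and 10.64 in NSCs. Neurons A stood apart from B and C, and yNSCs were 1.69-fold higher than neurons and 3.45-fold lower than NSCs.

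Insig2, the paralogue of Insig1, read 7.60, 7.36 and 7.55 in neurons, 8.77, 8.63 and 8.61 in yNSCs and 8.07, 8.60 and 8.62 in NSCs. It was 2.24-fold higher in yNSCs than in neurons (adjusted p = 1.8e-05), while yNSCs and NSCs overlapped (0.24 ± 0.15 SE, adjusted p = 0.232), with NSCs A below the other NSC arrays. Scap, the escort of the SREBPs, rose by 0.47 ± 0.15 in yNSCs and by 0.87 ± 0.15 in NSCs over neurons. The first was lost without neurons B (0.39, adjusted p = 0.0612), after quantile normalization again (0.20, adjusted p = 0.293) and as the mean of all probe sets (0.26, adjusted p = 0.14).

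All 4 fatty acid enzymes were higher in NSCs than in neurons, against 33.3% of all genes. All 4 were lower in yNSCs than in NSCs, against 18.0% of all genes. In yNSCs against neurons Acly was higher and the probe sets used for Fasn, Scd1 and Scd2 were lower, but those 3 calls depended on single arrays or on the probe set. Acly, which supplies cytosolic acetyl-CoA to both pathways, kept the ladder with means of 9.68 ± 0.10 (SD, n = 3), 10.49 ± 0.08 and 11.66 ± 0.10 in neurons, yNSCs and NSCs. Fasn, the fatty acid synthase, read 9.43, 9.24 and 9.36 in neurons, 9.00, 8.93 and 8.80 in yNSCs and 11.12, 10.61 and 10.31 in NSCs. The yNSC arrays lay just under the neuron arrays (-0.43 ± 0.17 SE, adjusted p = 0.0432), and the NSC arrays spread more than for any other of the 30 genes (SD 0.41). Leaving out any 1 of the neuron or yNSC arrays, or NSCs B, ended that call (adjusted p from 0.0537 to 0.124). NSCs remained 3.41-fold above yNSCs (adjusted p = 5.17e-06).

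Scd1 and Scd2, stearoyl-CoA desaturases that make monounsaturated fatty acids, depended on the probe set. The probe set used for Scd1 read 11.27, 10.55 and 10.69 in neurons, 10.43, 10.24 and 10.13 in yNSCs and 11.79, 12.06 and 12.02 in NSCs, a 1.48-fold lower level in yNSCs than in neurons (adjusted p = 0.0118). Its other probe set read 5.06, 5.20 and 4.92 in neurons, 6.67, 6.68 and 6.66 in yNSCs and 8.69, 8.38 and 8.46 in NSCs, a ladder of the usual order with yNSCs above neurons by 1.61 (adjusted p = 1.44e-07). Both placed NSCs highest.

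For Scd2, the brightest probe set read 13.00, 12.91 and 12.93 in neurons, 12.60, 12.57 and 12.49 in yNSCs and 13.32, 13.32 and 13.20 in NSCs. A second gave 0.87 in yNSCs against neurons (adjusted p = 0.000929) and 3.03 in NSCs against neurons, and the remaining one gave -0.45 and -0.16. The direction in yNSCs against neurons is therefore unsettled for both desaturases. Across the 30 genes, 20 had several of the 68 probe sets, and for Scd1, Scd2 and Acly the probe set used and another were called in opposite directions in yNSCs against neurons. No such pair of opposite calls occurred in the other two comparisons, where the nearest case was Sc5d in yNSCs against NSCs, with a call for another probe set alone. The opposing Acly probe set was dim (mean 3.42 over the 9 arrays) and gave -0.52 (adjusted p = 0.0336).

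**Figure D3:**
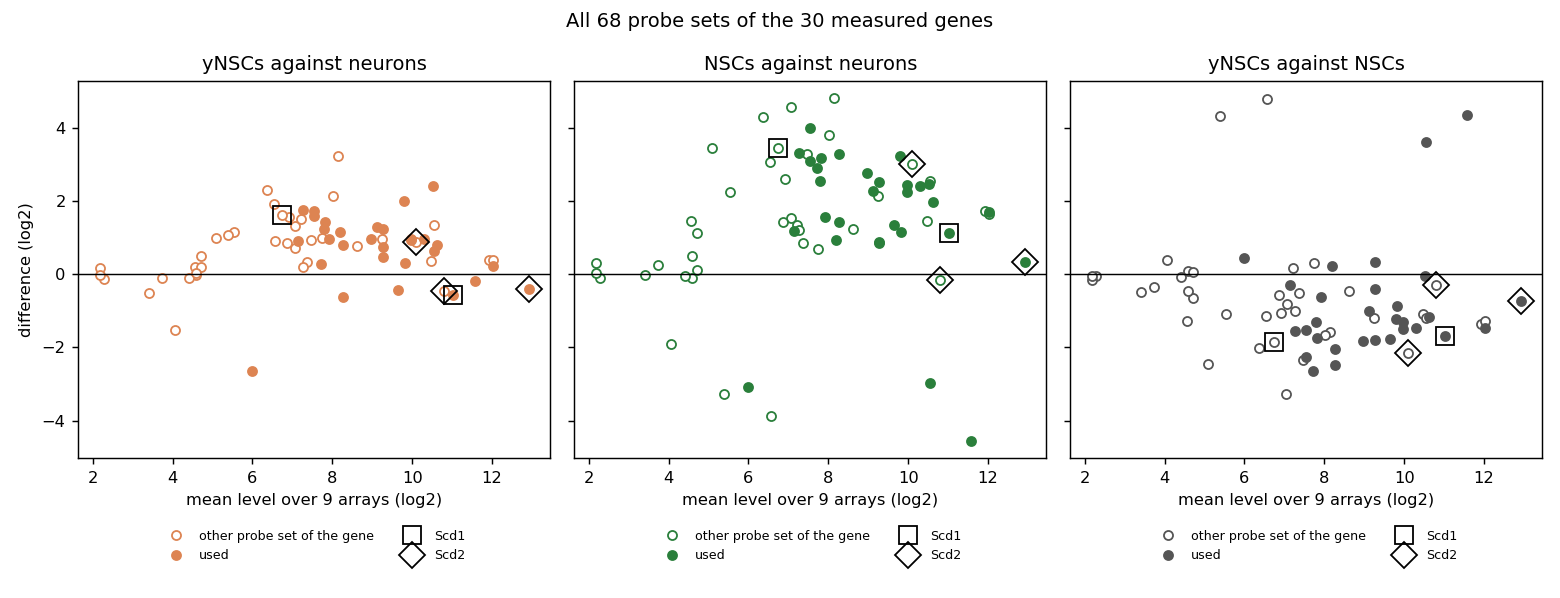
All 68 probe sets of the 30 genes, with the mean over 9 arrays on the x axis and the log2 difference on the y axis, for the 3 comparisons. Filled points are the probe sets used and open points the others, and black squares and diamonds mark Scd1 and Scd2. In yNSCs against neurons, Scd1 and Scd2 have probe sets on both sides of 0 (-0.57 and 1.61 for Scd1), while in yNSCs against NSCs all of theirs lie below 0.

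**Figure D4:**
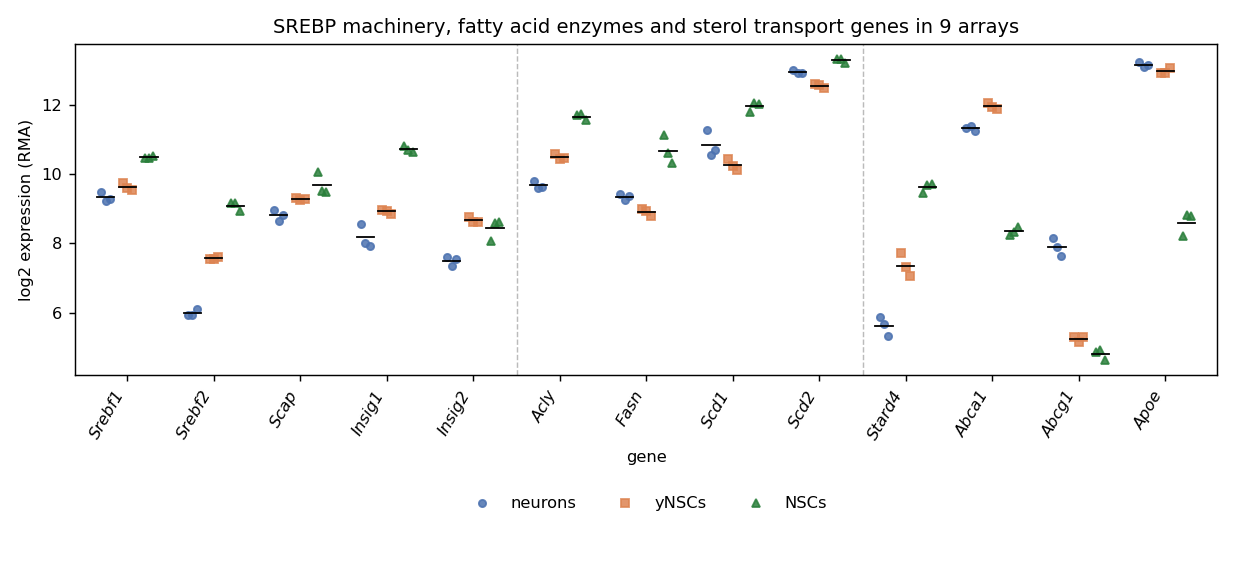
Log2 expression of the SREBP factors and sensors (left), fatty acid enzymes (middle) and sterol transport genes (right) in each of the 9 arrays. Points are arrays and bars are group means. Srebf2 climbs from about 5.98 in neurons to 9.09 in NSCs, while Abca1 and Apoe are far lower in NSCs than in the other two groups.

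The transport and efflux genes split. Stard4, a carrier that moves cholesterol between membranes and is a known SREBP target, climbed with the enzymes, at 5.86, 5.67 and 5.33 in neurons, 7.71, 7.32 and 7.05 in yNSCs and 9.45, 9.69 and 9.70 in NSCs. Its 15.9-fold gap between NSCs and neurons (adjusted p = 1.25e-09) was the largest increase of the 30 genes in that comparison by the probe sets used, although another probe set of Idi1 gave a larger difference (4.82). Its spread in yNSCs was the widest there (SD 0.33).

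Abca1, the pump that loads cholesterol onto apolipoproteins, ran against the enzymes. It read 11.32, 11.39 and 11.25 in neurons, 12.04, 11.94 and 11.89 in yNSCs and 8.25, 8.32 and 8.46 in NSCs. The yNSCs were the highest group, 1.55-fold above neurons (adjusted p = 0.000128) and 12.2-fold above NSCs (adjusted p = 3.02e-10). Both other probe sets of Abca1 were called in the same directions (0.91 and 1.07 against neurons, 4.79 and 4.34 against NSCs).

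Apoe, the main apolipoprotein of the brain, read 13.24, 13.09 and 13.14 in neurons, 12.91, 12.92 and 13.07 in yNSCs and 8.21, 8.81 and 8.78 in NSCs. The yNSC and neuron arrays lay close together (-0.19 ± 0.15 SE, adjusted p = 0.29, and -0.38 with adjusted p = 0.0459 after quantile normalization again). Above NSCs, Apoe was 20.6-fold higher in yNSCs (adjusted p = 1.16e-09) and 23.5-fold higher in neurons (adjusted p = 1.03e-10). Abcg1, a second cholesterol pump, read 8.15, 7.90 and 7.62 in neurons, 5.30, 5.14 and 5.30 in yNSCs and 4.87, 4.93 and 4.62 in NSCs. Unlike Abca1 it was low in both stem cell groups, 6.25-fold lower in yNSCs and 8.48-fold lower in NSCs than in neurons. Its gap of 0.44 between yNSCs and NSCs (adjusted p = 0.0258) was lost without NSCs C (adjusted p = 0.104), yNSCs A (0.0817) or yNSCs C (0.081).

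Apoe, Abca1 and Abcg1 are also expressed by astrocytes and microglia, whose markers differed between the groups. The 13 microglia and macrophage markers summed to linear levels of 6120 to 8560 in neurons, 707 to 821 in yNSCs and 222 to 243 in NSCs. Cd68 and Ctss were the brightest of the 13 in yNSCs and so weighed most in that sum. Cd68 averaged 9.15 in neurons, 8.42 in yNSCs and 4.22 in NSCs, and Ctss 9.95, 6.66 and 4.15. C1qa averaged 10.42, 4.94 and 3.73. Of the 13 markers, 12 were lower in yNSCs and 13 in NSCs than in neurons, against 27.9% and 34.1% of all genes. In yNSCs 10 were higher than in NSCs, against 21.3% of all genes. Aif1 lay below the lower quartile in yNSCs, as did C1qb, Aif1 and P2ry12 in NSCs.

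The 10 astrocyte markers summed to 19800 to 21100 in neurons, 13000 to 14600 in yNSCs and 10500 to 12200 in NSCs, with Gjb6 below the lower quartile in every group. Between yNSCs and NSCs 5 were higher and 2 lower in yNSCs, against 21.3% and 18.0% of all genes. Gfap, the astrocyte intermediate filament, averaged 7.62 in neurons, 9.23 in yNSCs and 3.80 in NSCs. Aqp4, the astrocyte water channel, averaged 10.62, 9.80 and 4.97, with NSC arrays spread from 3.4 to 5.9. Aldoc, a glycolytic enzyme enriched in astrocytes, was instead lowest in yNSCs, at 12.50, 10.83 and 12.03. Sox9, also on this list, was highest in NSCs, at means of 7.76, 8.86 and 9.31. Aldh1l1 averaged 8.88, 10.52 and 10.56, and yNSCs and NSCs did not differ in it by the test (-0.04, adjusted p = 0.851). Also higher in yNSCs than in NSCs were Slc1a3, Slc1a2 and Gja1, by 1.15, 1.23 and 0.92. The part of these cell types in the Apoe, Abca1 and Abcg1 results was not tested.

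Some arrays leaned one way over the 30 genes. Neurons A was the highest of its group in 25 of them, against 37.8% of all genes, with a median deviation of 0.24 from the other two arrays. Among yNSCs, A was the highest in 21 (30.6% of all genes) and C the lowest in 22 (35.9% of all genes), with median deviations of 0.13 and -0.11. In NSCs no array was the highest or lowest in more than 12 genes. Median SDs of the 30 genes were 0.17 in neurons, 0.09 in yNSCs and 0.10 in NSCs, against 0.15, 0.10 and 0.14 for all genes.

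Counts in 5 further lists are read against the shares of all genes called higher and lower, which were 34.6% and 27.9% in yNSCs against neurons, 33.3% and 34.1% in NSCs against neurons, and 21.3% and 18.0% in yNSCs against NSCs. Of 13 further enzymes of sterol synthesis and its isoprenoid branches, yNSCs exceeded neurons in 10 and fell below them in 1, NSCs exceeded neurons in 7 and fell below them in 0, and yNSCs exceeded NSCs in 5 and fell below them in 5. Lbr, a nuclear envelope protein that is also a sterol C14 reductase, repeated the ladder, with means of 6.68 ± 0.17 (SD, n = 3) in neurons, 9.12 ± 0.19 in yNSCs and 10.76 ± 0.22 in NSCs. Dhdds, of dolichol synthesis, was higher by 1.27 in yNSCs and 1.43 in NSCs, and Ggps1, the geranylgeranyl diphosphate synthase, was higher in yNSCs than in NSCs by 0.54.

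Among 13 genes of SREBP processing and sterol sensing, yNSCs exceeded neurons in 12 and fell below them in 1, with counts of 10 and 1 for NSCs. In yNSCs against NSCs 3 were higher and 4 lower, with a median difference of 0.03. Mbtps1 and Mbtps2, the proteases that release SREBPs in the Golgi, were higher in NSCs than in neurons by 1.34 and 1.44, and their differences in yNSCs against NSCs were -0.60 and -0.47. Tmem97, a sterol-responsive membrane protein, was higher by 2.04 in yNSCs and 3.13 in NSCs. Paqr3, a Golgi anchor of Scap, was the one that was lower, with differences of -0.67 and -0.61.

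In the wider set of 24 genes of fatty acid synthesis, elongation, desaturation and esterification, the genes higher and lower numbered 11 and 9 in yNSCs against neurons, 15 and 5 in NSCs against neurons, and 2 and 13 in yNSCs against NSCs. In yNSCs against neurons both counts lay not far above the shares of all genes. Acss2, which makes acetyl-CoA from acetate, averaged 6.98 in neurons, 7.15 in yNSCs and 9.90 in NSCs. Lpin1, a phosphatidate phosphatase, averaged 7.34, 7.91 and 10.20 in that order. Elovl7, an elongase of long-chain fatty acids, was instead highest in yNSCs, by 1.79 over neurons and 2.17 over NSCs.

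Of 18 genes of LXR factors, efflux, oxysterols and cholesterol esters, the counts higher and lower were 5 and 9 in yNSCs against neurons, 4 and 12 in NSCs against neurons, and 6 and 1 in yNSCs against NSCs. Clu, a lipid-binding apolipoprotein, was low in NSCs alone, with means of 11.71 ± 0.18 (SD, n = 3) in neurons, 11.51 ± 0.16 in yNSCs and 7.45 ± 0.18 in NSCs. Pltp, the phospholipid transfer protein, was higher in yNSCs by 1.80 over neurons and 2.46 over NSCs. Mylip, an LXR target that degrades lipoprotein receptors, was low in both stem cell groups, with differences from neurons of -2.79 in yNSCs and -2.64 in NSCs. Nr1h3, which encodes LXR alpha, passed in none of the 3 comparisons (means 4.36, 4.26 and 4.35).

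Of 20 genes of sterol uptake and transport between membranes, they were 10 and 6, 7 and 7, and 8 and 7 in the same order. In NSCs against neurons these counts are about the shares of all genes, so they say nothing particular about the list. Scarb1, the HDL receptor, repeated the ladder, with means of 6.38 ± 0.14 (SD, n = 3) in neurons, 7.92 ± 0.05 in yNSCs and 10.08 ± 0.15 in NSCs. Npc2, which hands cholesterol out of lysosomes, was higher in NSCs than in neurons by 1.31. Gramd1b, a sterol carrier at contacts with the plasma membrane, gave -1.55 in yNSCs and -1.78 in NSCs against neurons.

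**Figure D5:**
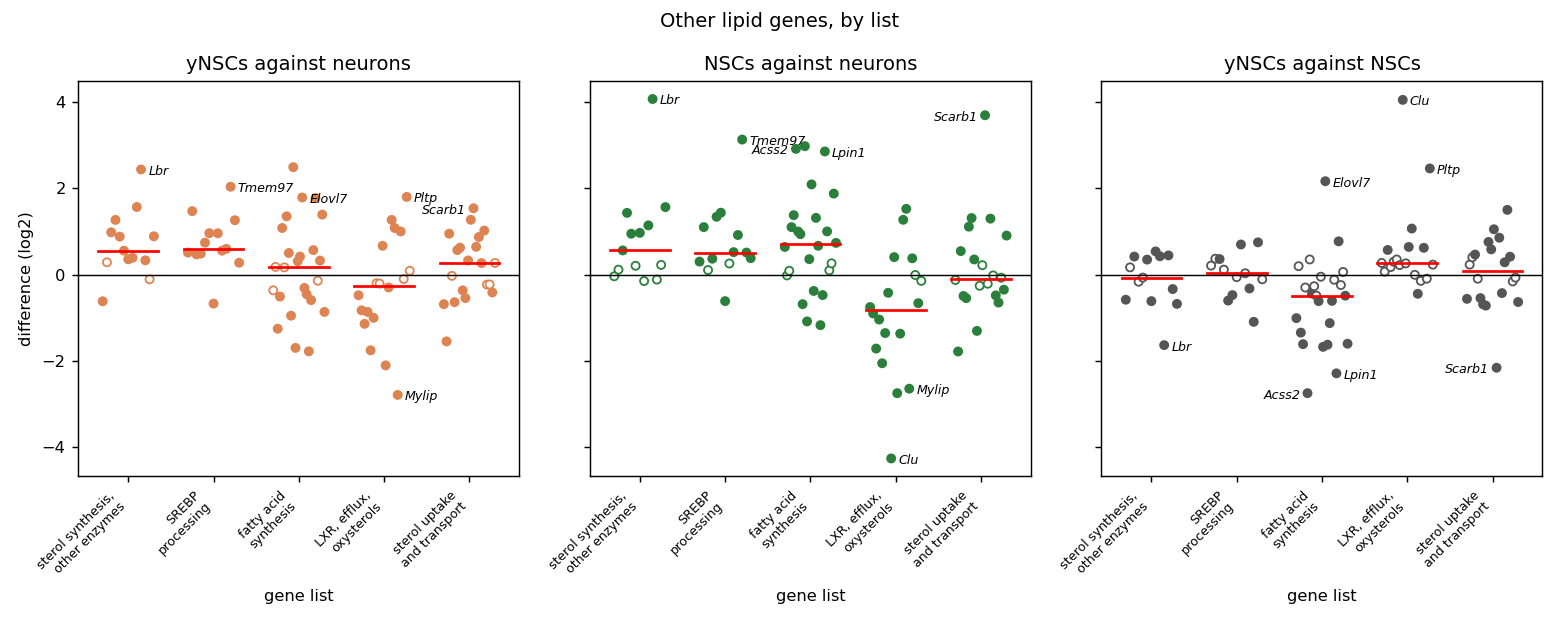
Log2 differences of the other lipid genes in 5 lists, for the 3 comparisons. Points are genes, filled where adjusted p was under 0.05, and red bars are list medians. Labelled genes are some of those with a difference over 1.5 in size, such as Lbr (4.07) and Clu (-4.26) in NSCs against neurons.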

How the data were processed

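Total RNA of 9 samples was extracted with Trizol, labelled as biotinylated cRNA and hybridized to Affymetrix arrays. The deposited log2 values were computed by the authors with RMA, per the labels, and carry 2 decimals. Which software version was used and which arrays were normalized together is not given in the sources used here. Values were used as deposited. Of 45101 probe sets, 64 controls were left out, and 34945 had 1 symbol in the array annotation (34741 matched to RefSeq on GRCm38.p6), 932 several and 9160 none named here.

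A linear model with 3 group means was fitted to all 9 arrays and 18193 genes with limma 3.58.1 in R 4.3.3 (6 residual and 5.59 prior degrees of freedom). The comparisons were two-sided, with Benjamini-Hochberg adjustment over all genes and calls at adjusted p under 0.05. A difference is positive where the group named first was higher, and its SE is limma's moderated one. Other probe sets were fitted together with all probe sets. The number of arrays limits the precision. Summed marker levels are sums of 2 to the power of each value. The fit was tested on simulated data.

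All listed genes are named, and of each further lipid list some of the 3 genes with the largest called differences per direction and comparison. Nr1h3, Gfap, Aqp4, Sox9, Aldh1l1, Slc1a3, Slc1a2, Gja1, Map2, Prom1, Hes5, Sox3 and Fabp7 were named in addition after their values were seen. So were Mki67, Cd68, Ctss, C1qa and Glul. The genes and lists were chosen with earlier results of these data known. Alternatives were another normalization, array medians subtracted, the mean of all probe sets, each probe set alone, only the 6 arrays compared, a variance trend with robust prior, the 40% of genes of lowest mean left out, a 2-fold minimum, the replicate letter as a block, and each array left out in turn.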

Additional observations from a re-analysis of the deposited data

How the results depend on the processing

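Most directions and calls held. In NSCs against neurons, all 270 differences with 1 array left out kept direction and call. Leaving out arrays moved the counts of genes higher or lower within 20 to 24 and 4 to 5 in yNSCs against neurons, 27 and 3 in NSCs against neurons, and 2 to 4 and 22 to 24 in yNSCs against NSCs. A 2-fold minimum left 10 genes higher and 1 lower in yNSCs against neurons. With the mean of all probe sets, 3 genes were lower there and the median of NSCs against neurons was 1.77. Quantile normalization again gave medians of 0.63 (yNSCs against neurons) and 1.92 (NSCs against neurons), and left Scd2 in the latter not passing (0.14, adjusted p = 0.224). The cause was not tested.

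Directions turned, in yNSCs against neurons, for Lss after quantile normalization again (-0.019), for Scd1 and Scd2 as the mean of probe sets (0.52 and 0.011), and for single probe sets of Fdps (-0.13), Fdft1 (-0.03 and -0.10), Hsd17b7 (-0.10), Acly (-0.01 and -0.52), Scd1 (1.61) and Scd2 (0.87). They turned in NSCs against neurons for probe sets of Fdps (-0.093), Fdft1 (-0.11 and -0.037), Acly (-0.03) and Scd2 (-0.16). In yNSCs against NSCs they turned for Fdft1 (probe set, 0.08), Sc5d (mean of probe sets -0.032, one probe set -0.52) and Msmo1 (from -0.09 without yNSCs A to 0.01 without yNSCs C). The Hmgcs1 difference of yNSCs against neurons also passed with array medians subtracted (0.32) and with a variance trend, and the Fasn difference did not pass with array medians subtracted (-0.34, adjusted p = 0.0978).

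Deviations of samples with the same letter correlated at -0.105 to 0.1 over 9 pairs, so the letters were not taken as pairs. With the replicate letter as a block, the counts of yNSCs against neurons were 22 higher and 5 lower, and the block changed 1 call among the 30 genes, Scap in yNSCs against NSCs (-0.40, adjusted p = 0.0336). With 3 arrays per group, and with values below the lower quartile of an array close to background, small differences and dim probe sets are the least certain.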
